A study of Homo sapiens and Mus musculus with 24 samples.

Results

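The genes described here are 31 genes of cholesterol synthesis and of the SREBP system that controls it, listed by symbol. They were followed in RNA-seq of Caco-2 cells, where all 31 were found among 58051 counted gene identifiers, and of mouse colonic epithelial cells, where 29 of 29307 counted genes carried one of the names. The mouse genes for lanosterol demethylase and the main stearoyl-CoA desaturases have other names (Cyp51, Scd1 and Scd2) and are given apart. Of the 31 genes, 18 encode enzymes from acetoacetyl-CoA to cholesterol, 5 encode sterol sensing proteins and transcription factors, 3 encode proteins that move, absorb or esterify cholesterol, and 5 encode enzymes of fatty acid synthesis. All 31 human and all 29 mouse genes passed the filter on low counts in every comparison.

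The study disrupted DNMT3A, a DNA methyltransferase that places new methylation marks, and compared Caco-2 cells, a human colorectal adenocarcinoma line, in 4 states. WT is the unedited line, ΔDNMT3A is 1 clone in which CRISPR-Cas9 ablated the protein, and DNMT3A1 and DNMT3A2 are clones of ΔDNMT3A cells given back 1 isoform each as a TY1-tagged cDNA on a piggyBac vector with a CMV promoter and puromycin selection, so that these lines differ from WT also by cloning, vector and selection. All were grown in medium with fetal calf serum, and 4 WT, 4 ΔDNMT3A, 3 DNMT3A1 and 4 DNMT3A2 libraries were analysed. In C57BL/6 mice with exons 13–17 of Dnmt3a flanked by loxP sites, Villin-Cre deleted the gene in the intestinal epithelium (Dnmt3a ΔIEC, 4 mice), and Dnmt3a fl/fl mice without this deletion (4 mice) served as controls. EpCAM-positive colonic cells of mice 12 weeks old were sequenced in the steady state. No label ties a Caco-2 library to a separate culture, so p-values measure the spread between libraries, which may be technical, and a difference between lines cannot be told apart from a difference between single clones.

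Cells make cholesterol from acetyl-CoA through mevalonate, squalene and lanosterol. The genes of this route, and many of fatty acid synthesis, are switched on by SREBP transcription factors, which are held in the endoplasmic reticulum by SCAP and INSIG proteins while sterols are plentiful and are released to the nucleus when sterols run low. In the intestine, cholesterol also comes from the lumen through NPC1L1 and is esterified by SOAT2 for export in lipoproteins.

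SREBPs bind DNA together with NF-Y, which recognizes CCAAT, so both strands of the 300 bases around the start of each gene, from 250 bases before to 50 after, were searched in RefSeq sequence of GRCh38.p14. Such windows were at hand for 26 of the 31 genes. CCAAT was found in windows of 20 of these 26 genes (24 of 35 windows), against 34.6% of all 35116 windows. The letters TCACNCCAC, a form of the sterol regulatory element, were found in SREBF2 alone among them, beginning 133 bases before the start. That was 1 of the 35 windows, against 1.13% of all windows. CACGTG, an E-box that SREBP-1 can bind, was found in 4 of the 26 genes (5 of 35 windows), against 7.26% of all windows. A match is a match of letters only, and the windows leave out elements further from the start. The windows of 5 genes the results turn on are printed 5′ to 3′ on the gene's strand, those of the sterol enzyme and the fatty acid enzyme with the largest decreases in ΔDNMT3A cells (HMGCS1 at chr5:43313363-43313662, minus strand, and SCD at chr10:100346983-100347282, plus strand), of 2 genes that rose (INSIG1 at chr7:155297628-155297927, plus strand, and STARD4 at chr5:111512486-111512785, minus strand) and of SREBF2 (chr22:41832855-41833154, plus strand). Capitals mark CCAAT or its reverse complement ATTGG and, in SREBF2, the TCACNCCAC match.
HMGCS1: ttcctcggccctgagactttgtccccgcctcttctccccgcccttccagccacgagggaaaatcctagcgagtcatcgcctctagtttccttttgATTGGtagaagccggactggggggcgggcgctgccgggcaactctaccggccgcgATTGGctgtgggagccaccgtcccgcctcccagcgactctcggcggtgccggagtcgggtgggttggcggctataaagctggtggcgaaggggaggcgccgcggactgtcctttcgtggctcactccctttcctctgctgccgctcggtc
SCD: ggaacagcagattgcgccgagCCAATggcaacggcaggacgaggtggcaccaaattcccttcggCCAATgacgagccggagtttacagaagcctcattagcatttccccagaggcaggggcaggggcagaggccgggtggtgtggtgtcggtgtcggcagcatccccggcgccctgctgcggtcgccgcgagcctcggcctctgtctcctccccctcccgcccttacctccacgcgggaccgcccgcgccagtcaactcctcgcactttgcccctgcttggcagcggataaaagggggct
INSIG1: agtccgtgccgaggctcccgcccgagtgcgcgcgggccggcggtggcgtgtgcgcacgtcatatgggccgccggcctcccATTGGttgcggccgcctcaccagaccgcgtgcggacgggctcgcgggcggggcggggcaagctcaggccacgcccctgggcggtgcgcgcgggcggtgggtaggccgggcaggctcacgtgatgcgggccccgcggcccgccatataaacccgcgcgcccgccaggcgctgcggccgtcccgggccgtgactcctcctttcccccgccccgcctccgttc
STARD4: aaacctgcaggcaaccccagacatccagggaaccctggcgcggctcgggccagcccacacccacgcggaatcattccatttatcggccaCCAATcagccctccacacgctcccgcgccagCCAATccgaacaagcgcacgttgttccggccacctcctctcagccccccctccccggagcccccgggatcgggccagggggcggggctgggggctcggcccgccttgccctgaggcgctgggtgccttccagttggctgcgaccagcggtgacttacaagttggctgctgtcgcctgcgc
SREBF2: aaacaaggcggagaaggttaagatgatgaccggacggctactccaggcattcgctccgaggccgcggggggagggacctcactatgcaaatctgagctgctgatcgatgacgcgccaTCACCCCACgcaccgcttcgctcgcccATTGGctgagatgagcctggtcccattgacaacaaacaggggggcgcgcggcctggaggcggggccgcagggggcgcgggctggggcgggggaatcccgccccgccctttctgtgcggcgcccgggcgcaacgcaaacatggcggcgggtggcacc

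Depth was 22104408 to 42161299 reads counted on genes over the 15 Caco-2 libraries and 16943626 to 24921248 over the 8 mouse libraries. DNMT3A itself averaged 64.6 ± 2.27 CPM (SD, n = 4) for WT, 20.7 ± 1.22 CPM (SD, n = 4) for ΔDNMT3A, 38.02 ± 1.23 CPM (SD, n = 3) for DNMT3A1 and 21.9 ± 1.40 CPM (SD, n = 4) for the libraries labelled DNMT3A2. In DNMT3A mRNA the last did not pass the test against ΔDNMT3A, with a log2 fold change of 0.07 ± 0.06 (SE, adjusted p = 0.272 from the quasi-likelihood fit of edgeR, Benjamini-Hochberg), and their libraries overlapped. In every Caco-2 group, all 6 epithelial markers checked were above 1 CPM, though their sums differed between lines (8901 to 9164 CPM in WT, 11378 to 12020 in ΔDNMT3A, 9426 to 9574 in DNMT3A1 and 7734 to 7973 in the libraries labelled DNMT3A2), and PTPRC, a marker of leukocytes, was under 0.1 CPM. Of 6 enterocyte markers, 5 were above 1 CPM and FABP2 was under 0.1 CPM. Their summed level ran from 423 to 485 CPM in WT, 496 to 578 in ΔDNMT3A, 846 to 1038 in DNMT3A1 and 266 to 302 in the libraries labelled DNMT3A2, so the lines also differed in enterocyte genes. Of 8 immune markers 2 were above 1 CPM in every group, with sums of 23.6 to 24.6 CPM in WT, 31.97 to 36.7 in ΔDNMT3A, 18.7 to 19.5 in DNMT3A1 and 14.3 to 16.3 in the libraries labelled DNMT3A2. The 5 proliferation markers summed to 1925 to 1987 CPM in WT, 1853 to 1907 in ΔDNMT3A, 1721 to 1762 in DNMT3A1 and 1947 to 1987 in the libraries labelled DNMT3A2. The part of these differences in the results that follow was not tested.

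Levels are reads of a gene per 1000000 reads counted, on TMM library sizes (CPM), and levels of different genes are compared only per kilobase of exon (FPKM). On the FPKM scale, SCD was the highest of the 31 genes in WT at 222 ± 6.13 (SD, n = 4), followed by HMGCS1 at 97.2 ± 1.43 and ACLY at 94.3 ± 1.31, and the ranges of the last 2 touched. FDPS, ACAT2 and DHCR7 came next, at 79.4 ± 2.54, 75.3 ± 0.93 and 74.6 ± 2.61 FPKM, the latter 2 within their spread. The enzymes spanned 222 FPKM (SCD) to 3.95 ± 0.20 (ELOVL6). Among the sterol sensing genes INSIG1 was highest at 21.4 ± 0.66 FPKM, SCAP (15.8 ± 0.74) and SREBF2 (15.5 ± 0.31) lay within their spread of each other, and SREBF1 (8.16 ± 0.39) and INSIG2 (3.23 ± 0.23) were lower. NPC1L1 was the lowest of the 31 genes, at 2.33 ± 0.13 FPKM.

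The first comparison asks how these genes stand in cells that lost DNMT3A. In ΔDNMT3A cells, 25 of the 31 genes were lower than in WT, 3 were higher (INSIG1, STARD4 and NPC1L1) and 3 passed no test (PMVK, INSIG2 and SREBF2), with significance set at an adjusted p under 0.05 (quasi-likelihood fit of edgeR, Benjamini-Hochberg over all 16654 genes tested). Over all genes, 31% were lower, 31.2% were higher and 62.2% differed either way, so passing this test was common among all genes and about as frequent in either direction. In what follows, a value in parentheses after the levels of a gene is its log2 fold change ± SE with the adjusted p of edgeR. The median log2 fold change was −0.37 over the 31 genes and −0.0049 over all genes. In 25 of the 31 genes every ΔDNMT3A library lay below every WT library, against 26.5% of all genes, and in 3 every one lay above, against 28.9%. The decreases were mostly modest. Of the 31 genes, 8 fell by 0.5 or more on the log2 scale (10.9% of all genes did), and the sterol enzymes stood at a median of 75.7% of their WT level. Summed over the 18 sterol enzymes, WT libraries averaged 3141 ± 62.8 CPM (SD, n = 4) and ΔDNMT3A libraries 2279 ± 40.1 CPM (SD, n = 4).

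**Figure D1:**
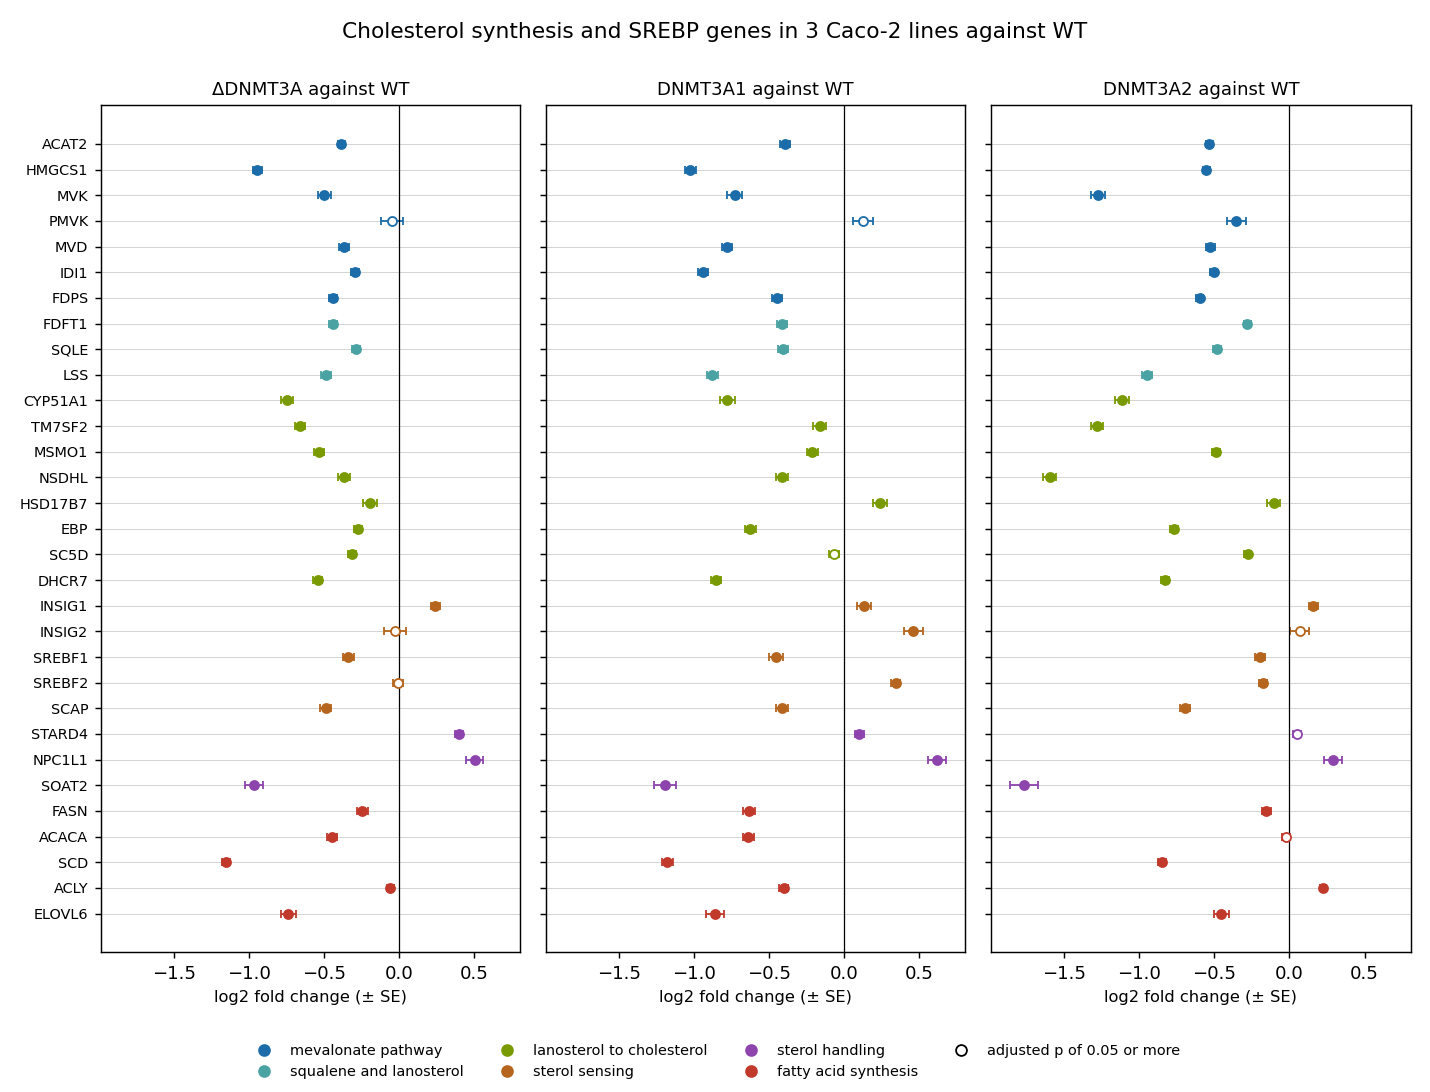
Log2 fold change of each of the 31 genes (points, with bars of 1 SE from edgeR) in ΔDNMT3A, DNMT3A1 and the libraries labelled DNMT3A2 against WT, grouped by role, with open points for an adjusted p of 0.05 or more. Most sterol enzymes lie left of 0 in each panel, 17 of 18 in ΔDNMT3A past the threshold, while INSIG1, STARD4 and NPC1L1 lie right of 0. The 3 comparisons share the WT libraries.

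Among the 7 genes of the mevalonate pathway, 6 were lower in ΔDNMT3A. HMGCS1, the synthase that condenses acetoacetyl-CoA and acetyl-CoA, had 449, 458, 466 and 455 CPM in the 4 WT libraries and 233, 235, 241 and 249 in the 4 ΔDNMT3A libraries. The groups were far apart, with ΔDNMT3A at 52.4% of the WT mean and a log2 fold change of −0.94 ± 0.03 (SE, adjusted p = 3.13e-19). In GRCh38 it spans 43289395 to 43313512 of chromosome 5, on the minus strand. MVK, mevalonate kinase, had 43.6, 43.4, 47.6 and 44.9 CPM in WT and 32.5, 31.7, 33.2 and 30.7 in ΔDNMT3A, without overlap (−0.50 ± 0.04, adjusted p = 1.26e-10). ACAT2, the thiolase that makes acetoacetyl-CoA, MVD, which decarboxylates the pyrophosphate of mevalonate, IDI1, the isomerase of isopentenyl pyrophosphate, and FDPS, which makes farnesyl pyrophosphate, fell by 0.39, 0.37, 0.29 and 0.44 on the log2 scale, each with an SE of 0.03. For IDI1 the levels were 259, 255, 255 and 259 CPM in WT and 204, 210.4, 211 and 221 in ΔDNMT3A. PMVK, phosphomevalonate kinase, differed by −0.05 ± 0.07 (SE) at 15.2 to 19.8 CPM in both groups (adjusted p = 0.6), so the groups overlapped.

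From farnesyl pyrophosphate to lanosterol, all 3 genes were lower. FDFT1, squalene synthase, fell by 0.44 ± 0.03 (SE), SQLE, the epoxidase that opens the oxygen-dependent part of the route, by 0.29 ± 0.03, and LSS, lanosterol synthase, by 0.49 ± 0.03 on the log2 scale.

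From lanosterol to cholesterol, all 8 genes were lower, by 0.20 (HSD17B7) to 0.75 (CYP51A1). CYP51A1, lanosterol 14-demethylase, had 47.3, 43.9, 48.05 and 46.8 CPM in WT and 29.1, 27.4, 29.04 and 26.3 in ΔDNMT3A, a log2 fold change of −0.75 ± 0.04 (SE, adjusted p = 1.77e-13). The 50 tested genes nearest to it on chromosome 7 had a median of −0.49, so its neighbours were lower too. TM7SF2, a sterol C14 reductase, had 58.4, 57.5, 60.7 and 57.1 CPM in WT and 37.6, 36.1, 38.1 and 37.1 in ΔDNMT3A (−0.66 ± 0.04, adjusted p = 5e-14). MSMO1, the C4 methyl oxidase, had 152, 145, 154 and 152 in WT and 98.7, 102, 108 and 112 in ΔDNMT3A (−0.53 ± 0.03, adjusted p = 1.4e-12). For all 3 the groups were apart, with no ΔDNMT3A library near the lowest WT library. DHCR7, which makes cholesterol from 7-dehydrocholesterol, had 311, 295, 319.7 and 316 CPM in WT and 213, 215, 226 and 205 in ΔDNMT3A (−0.54 ± 0.03, adjusted p = 1.21e-13). NSDHL, the C4 decarboxylase, had 66.7, 60.7, 67.6 and 66.3 in WT and 49.7, 50.6, 54.9 and 49.2 in ΔDNMT3A (−0.37 ± 0.04, adjusted p = 1.36e-08). EBP, the sterol isomerase, SC5D, the C5 desaturase, and HSD17B7, the 3-keto reductase, fell by 0.27, 0.31 and 0.20.

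**Figure D2:**
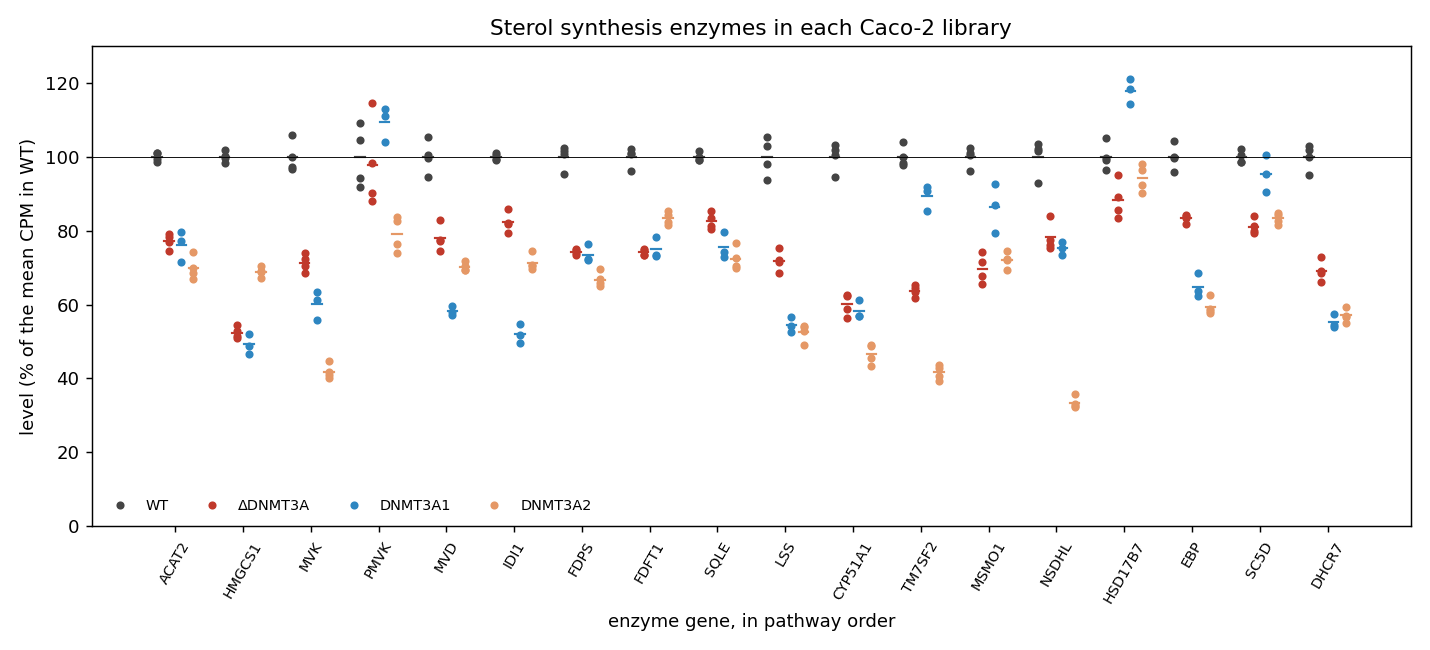
Level of the 18 sterol synthesis enzymes in each library as a percentage of the WT mean CPM (points are libraries, short lines are group means), in pathway order from left to right. ΔDNMT3A libraries sit below 100% for all enzymes but PMVK, where the groups overlap, and NSDHL in the libraries labelled DNMT3A2 is the lowest, at 33.4% of WT.

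The genes that govern the route did not fall together. SREBF2, which encodes SREBP-2, the main activator of the cholesterol enzymes, had 114, 118, 120.0 and 116 CPM in WT and 110.3, 121, 124 and 114 in ΔDNMT3A, and the groups overlapped (−0.0072 ± 0.03, adjusted p = 0.864). The 50 genes nearest to it had a median log2 fold change of 0.30. SREBF1, whose products act mainly on fatty acid genes, had 66.8, 60.9, 67.7 and 66.9 CPM in WT and 51.1, 54.1, 55.01 and 49.1 in ΔDNMT3A. Every ΔDNMT3A library was lower, also than WT replicate 2, which stood below the other 3 WT libraries (−0.34 ± 0.04, adjusted p = 6.8e-08). SCAP, the escort that carries SREBPs to the Golgi, had 96.4, 95.2, 105 and 102 in WT and 71.7, 71.2, 75.8 and 67.6 in ΔDNMT3A (−0.49 ± 0.04, adjusted p = 2.51e-11), and the 50 genes nearest to it had a median of −0.33. INSIG1, which retains SCAP and is itself a target of SREBPs, went the other way. It had 79.1, 74.4, 79.8 and 78.6 CPM in WT and 92.7, 91.5, 92.4 and 94.3 in ΔDNMT3A (0.24 ± 0.03, adjusted p = 2.61e-07). INSIG2, its relative, had 13.5, 11.7, 12.3 and 13.5 CPM in WT and 11.6, 13.1, 11.6 and 14.3 in ΔDNMT3A, with overlapping groups (−0.03 ± 0.07, adjusted p = 0.735).

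The 3 genes of sterol handling moved in both directions. SOAT2, which esterifies cholesterol in enterocytes, had 15.7, 16.6, 17.4 and 16.9 CPM in WT and 8.46, 8.23, 8.82 and 8.91 in ΔDNMT3A (−0.97 ± 0.06, adjusted p = 1.62e-12), with no overlap between the groups. NPC1L1, the luminal cholesterol transporter, had 11.9, 13.2, 12.2 and 11.7 in WT and 17.8, 17.1, 17.5 and 17.2 in ΔDNMT3A, higher in every library (0.50 ± 0.06, adjusted p = 6.54e-08). STARD4, a carrier of cholesterol between membranes and a target of SREBP-2, had 136, 138, 136 and 136 CPM in WT and 176, 182, 181 and 186 in ΔDNMT3A (0.40 ± 0.03, adjusted p = 3.13e-12), and its per-library values were singled out after they were seen. INSIG1 and STARD4 are SREBP targets that rose while 17 of 18 sterol enzymes fell. SREBP activity was not measured, and the cause of this difference was not tested.

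**Figure D3:**
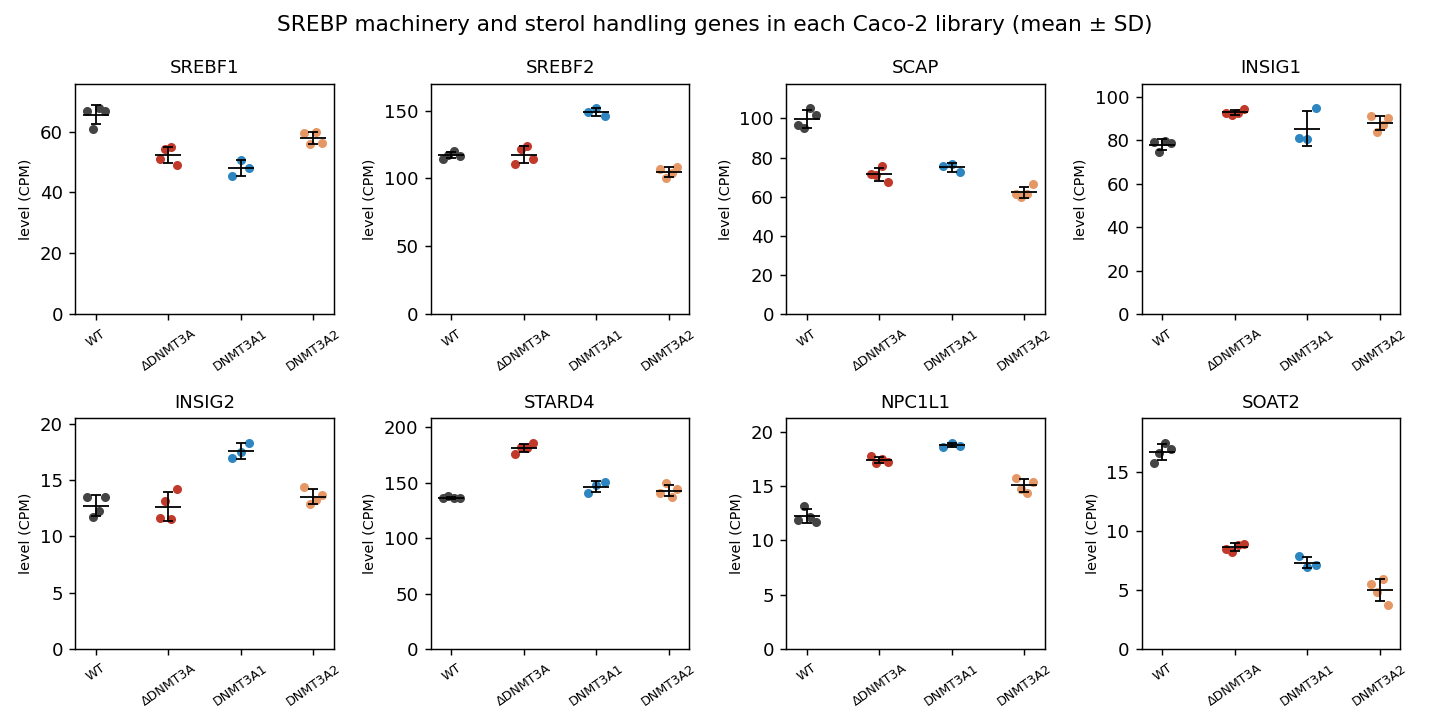
Level in CPM of the 5 sterol sensing and 3 sterol handling genes in each Caco-2 library (points), with mean and SD, on axes that start at 0. SREBF2 is level between WT and ΔDNMT3A and higher in DNMT3A1, INSIG1, STARD4 and NPC1L1 are higher in ΔDNMT3A than in WT, and SOAT2 is lower in all 3 edited lines.

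All 5 genes of fatty acid synthesis were lower in ΔDNMT3A. SCD, the desaturase that makes oleic acid, had 1148, 1179, 1204 and 1225 CPM in WT and 518, 539, 566 and 533 in ΔDNMT3A (−1.15 ± 0.03, adjusted p = 2.01e-20). At 45.3% of WT, it was the gene of the 31 that fell most. The 50 genes nearest to it had a median log2 fold change of −0.23. ELOVL6, which elongates palmitate, had 27.1, 29.6, 30.3 and 28.3 CPM in WT and 18.1, 17.7, 16.8 and 16.9 in ΔDNMT3A (−0.74 ± 0.05, adjusted p = 6.73e-12). ACACA, acetyl-CoA carboxylase, fell by 0.45 ± 0.03 (SE) and FASN, fatty acid synthase, by 0.25 ± 0.04. Over the alternative fits the log2 fold change of FASN ran from −0.37 to −0.12. ACLY, which makes cytosolic acetyl-CoA from citrate, fell by 0.06 ± 0.03 at an adjusted p of 0.0467 and lost the threshold in 7 of the 8 fits that left out 1 library. The exception was the fit without WT replicate 2, and the adjusted p ran from 0.0343 to 0.159 over these 8 fits.

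The next comparisons set the lines that were to express 1 isoform against ΔDNMT3A. The libraries labelled DNMT3A2 held DNMT3A mRNA at the level of ΔDNMT3A, so they are named by their label only. At the protein level, the paper reports both isoforms as re-expressed in immunoblots and located in nuclei by immunofluorescence. The RNA counts do not measure protein. Both lines share the ΔDNMT3A libraries as their control, so their values are set side by side. Both comparisons also share these libraries with the comparison against WT. Against ΔDNMT3A, 6 of the 31 genes were higher, 15 lower and 10 passed no test in DNMT3A1, where 30.4% of all 16860 genes tested were higher and 30.3% lower. All DNMT3A1 libraries lay above all ΔDNMT3A libraries for 7 genes and below them for 13, against 30% and 29.8% of all genes. The median log2 fold change was −0.09 over the 31 genes and 0.01 over all genes. In the libraries labelled DNMT3A2, 8 were higher, 19 lower and 4 passed no test, where 33.8% of all 16431 genes were higher and 34.1% lower. The libraries were apart upward for 7 genes and downward for 19, against 30.9% and 30.5% of all genes. There the median was −0.16 over the 31 genes and 0.0036 over all genes. The sterol enzymes as a group were not at their WT level in either line. They summed to 2097 ± 88.1 CPM (SD, n = 3) for DNMT3A1 and to 2093 ± 51.3 CPM (SD, n = 4) for the libraries labelled DNMT3A2, below the 2279 ± 40.1 CPM of ΔDNMT3A.

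In DNMT3A1, the 4 sterol enzyme genes that rose against ΔDNMT3A all act between lanosterol and cholesterol. TM7SF2 had 52.99, 49.9 and 53.6 CPM in the 3 DNMT3A1 libraries, all above the 37.6, 36.1, 38.1 and 37.1 of ΔDNMT3A (0.49 ± 0.05, adjusted p = 1.29e-08). MSMO1 had 131, 119.8 and 139.7 CPM (0.31 ± 0.05, adjusted p = 7.36e-06). HSD17B7 and SC5D rose by 0.42 ± 0.05 and 0.24 ± 0.04 (SE). Other enzymes fell further. IDI1 had 133, 128 and 141 CPM in DNMT3A1 against 204 to 221 in ΔDNMT3A (−0.66 ± 0.04, adjusted p = 4.82e-12), and the 50 genes nearest to it on chromosome 10 had a median of −0.41. MVD, LSS, EBP, DHCR7, MVK and SQLE fell by 0.42, 0.40, 0.36, 0.32, 0.24 and 0.13. The genes nearest to MVD and LSS had medians of −0.34 and −0.22. MVK had 27.5, 25.1 and 28.5 CPM and DHCR7 169, 168 and 179 CPM, both below all 4 ΔDNMT3A libraries. HMGCS1 was at 223, 213 and 238 CPM (−0.09 ± 0.04, adjusted p = 0.0405), a call lost when DNMT3A1 replicate 1 or 2 or ΔDNMT3A replicate 3 or 4 was left out. Without DNMT3A1 replicate 4 the change was −0.14. The 50 genes nearest to HMGCS1 had a median of −0.30. CYP51A1 (26.4, 26.5 and 28.5 CPM), NSDHL (50.3, 47.99 and 49.2 CPM), ACAT2, FDPS, FDFT1 and PMVK passed no test against ΔDNMT3A, though PMVK passed it without ΔDNMT3A replicate 3 (0.24).

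Among the sensors, SREBF2 had 149, 152 and 146 CPM in DNMT3A1, above all ΔDNMT3A and all WT libraries (0.34 ± 0.04, adjusted p = 1.19e-07 against ΔDNMT3A). INSIG2 had 16.95, 17.5 and 18.3 CPM, also above both (0.48 ± 0.07, adjusted p = 5.58e-06). Both genes were at about the same level in ΔDNMT3A and WT, so DNMT3A1 stood apart from both. The 50 genes nearest to SREBF2 had a median of −0.02 in DNMT3A1 against ΔDNMT3A and 0.26 in DNMT3A1 against WT. Those nearest to INSIG2 had medians of 0.01 and 0.07. INSIG1 had 80.9, 80.5 and 94.6 CPM, with replicate 4 above all 4 ΔDNMT3A libraries and the others below them. Its log2 fold change against ΔDNMT3A was −0.12 ± 0.05, adjusted p = 0.0331, −0.20 without replicate 4, and −0.08 without replicate 1 or without replicate 2, when it lost the threshold, as it did without ΔDNMT3A replicate 1 or 4. SREBF1 had 45.5, 50.7 and 47.9 CPM (−0.12 ± 0.05, adjusted p = 0.0398), a call lost without DNMT3A1 replicate 1 or 4 or ΔDNMT3A replicate 2 or 3. SCAP had 75.8, 76.8 and 72.5 CPM and passed no test. STARD4, higher in ΔDNMT3A than in WT, was lower than in ΔDNMT3A by 0.31 ± 0.03 (SE), at 141, 148 and 151 CPM. The 50 genes nearest to STARD4 had a median of −0.20 in this comparison and 0.12 in ΔDNMT3A against WT. In the libraries labelled DNMT3A2 against ΔDNMT3A that median was 0.22. SOAT2 had 7.82, 6.93 and 7.10 CPM (−0.24 ± 0.08, adjusted p = 0.0126), and NPC1L1 had 18.6, 18.96 and 18.7 CPM, all above ΔDNMT3A but short of the threshold (0.11 ± 0.05, adjusted p = 0.0694). The 5 fatty acid genes gave no rise. FASN, ACLY and ACACA fell by 0.40, 0.35 and 0.20, while SCD (523, 512 and 545 CPM) and ELOVL6 (16.6, 14.9 and 16.1 CPM) passed no test. ELOVL6 passed it without ΔDNMT3A replicate 3 (−0.15) or 4 (−0.14).

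In the libraries labelled DNMT3A2, the fatty acid genes and the sterol genes parted. All 5 fatty acid genes were higher than in ΔDNMT3A. SCD had 666, 639, 669.5 and 694 CPM (0.30 ± 0.03, adjusted p = 4.37e-10), above ΔDNMT3A and still far below the 1148 to 1225 of WT. ACACA rose by 0.42 ± 0.03 (SE), ACLY by 0.28 ± 0.02 and FASN by 0.09 ± 0.03. The change of FASN was 0.03 in the libraries of 1 sequencing lane and 0.04 after a trend with gene length was removed, and passed the test in neither. ELOVL6 had 21.6, 20.4, 20.8 and 22.1 CPM (0.28 ± 0.05, adjusted p = 4.62e-05). Of the 18 sterol enzymes, 13 were lower, 2 were higher and 3 passed no test (MSMO1, HSD17B7 and SC5D). MSMO1 (0.07) and HSD17B7 (0.12) passed it as higher without ΔDNMT3A replicate 4. The 2 higher in the full fit were HMGCS1 and FDFT1. HMGCS1 had 307, 316, 314 and 322 CPM (0.39 ± 0.03, adjusted p = 2.41e-12), and the 50 genes nearest to it had a median of 0.49, more than its own change. FDFT1 rose by 0.16 ± 0.02.

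NSDHL was the gene furthest from ΔDNMT3A. It had 21.3, 21.1, 21.6 and 23.4 CPM against 49.1 to 54.9 in ΔDNMT3A (−1.23 ± 0.05, adjusted p = 4.78e-17). The gene lies on the X chromosome, and the median of its 50 nearest genes was −1.04, close to its own change. MVK had 20.1, 17.9, 18.4 and 18.7 CPM (−0.77 ± 0.05, adjusted p = 1.35e-12) and TM7SF2 had 22.96, 25.5, 23.8 and 25.1 CPM (−0.62 ± 0.04, adjusted p = 1.39e-11). Their neighbours had medians of −0.23 and −0.06. EBP, LSS, CYP51A1, PMVK and DHCR7 fell by 0.49, 0.46, 0.37, 0.31 and 0.28, with CYP51A1 at 22.9, 21.1, 20.2 and 22.8 CPM and DHCR7 at 176, 177, 171 and 184 CPM. IDI1 had 179, 182, 181 and 191 CPM (−0.21 ± 0.03, adjusted p = 3.82e-07). MSMO1 had 105, 109, 109 and 112 CPM, overlapping with ΔDNMT3A. SOAT2, already low in ΔDNMT3A, had 5.45, 4.80, 5.91 and 3.73 CPM (−0.80 ± 0.10, adjusted p = 2.16e-07).

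STARD4 fell by 0.35 ± 0.03 (SE) in the libraries labelled DNMT3A2, to 141, 149, 137 and 144 CPM, and NPC1L1 had 15.7, 14.8, 14.3 and 15.4 CPM (−0.21 ± 0.06, adjusted p = 0.00151). SREBF1 had 59.4, 55.97, 59.9 and 56.4 CPM, above ΔDNMT3A (0.14 ± 0.04, adjusted p = 0.00178). SREBF2 had 107, 100.3, 104 and 108 CPM, below it (−0.17 ± 0.03, adjusted p = 0.000108), and the 50 genes nearest to it had a median of −0.40. SCAP had 61.3, 59.9, 61.2 and 66.4 CPM (−0.20 ± 0.04, adjusted p = 2.7e-05). INSIG1 had 90.9, 83.6, 86.9 and 90.2 CPM (−0.08 ± 0.03, adjusted p = 0.0197), a call lost without DNMT3A2 replicate 2 or 3, and INSIG2 had 14.4, 12.9, 13.2 and 13.7 CPM, which passed no test.

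Set against WT, DNMT3A1 had 23 of the 31 genes lower, 6 higher and 2 that passed no test (PMVK and SC5D), where 32.7% of all 17029 genes were lower and 32.6% higher. Its libraries lay below all WT libraries for 23 genes and above them for 6, against 31.5% and 31.8% of all genes. The libraries labelled DNMT3A2 had 25 lower, 3 higher and 3 that passed no test (INSIG2, STARD4 and ACACA), where 34.4% of all 16360 genes were lower and 34.3% higher. These libraries lay below all WT libraries for 24 genes and above them for 3, against 29.9% and 32.3% of all genes. The medians over the 31 genes were −0.42 and −0.49, and over all genes −0.0019 and −0.0032. All 18 sterol enzymes were lower in the libraries labelled DNMT3A2 than in WT, 12 of them by 0.5 or more on the log2 scale (15.9% of all genes), and 15 of 18 were lower in DNMT3A1, 8 of them by 0.5 or more (11.7%). HSD17B7 differed by −0.10 ± 0.04 (SE) in the libraries labelled DNMT3A2 and lost the threshold without DNMT3A2 replicate 1 or 4 or WT replicate 4. It was higher in DNMT3A1 by 0.24 ± 0.05. PMVK passed the test as higher in DNMT3A1 without WT replicate 3 (0.17), and SC5D as lower without DNMT3A1 replicate 4 (−0.11). As a share of WT, the sterol enzymes stood at a median of 74.3% in DNMT3A1 and 69.4% in the libraries labelled DNMT3A2, and the fatty acid genes at 64.4% and 90.9%. The furthest from WT were SOAT2 (−1.77 ± 0.09, adjusted p = 2.12e-17) and NSDHL (−1.59 ± 0.04, adjusted p = 6.68e-24) in the libraries labelled DNMT3A2 and SOAT2 (−1.20 ± 0.07, adjusted p = 1.02e-13) and SCD (−1.18 ± 0.03, adjusted p = 1.13e-19) in DNMT3A1. STARD4 stood 0.10 ± 0.03 above WT in DNMT3A1, short of the threshold without DNMT3A1 replicate 4 (0.07), and 0.05 ± 0.03 in the libraries labelled DNMT3A2, past it without DNMT3A2 replicate 3 (0.07). ACLY was above WT in the libraries labelled DNMT3A2, by 0.22 ± 0.02. INSIG1 was above WT by 0.16 ± 0.03 in the libraries labelled DNMT3A2. In DNMT3A1 it was above WT by 0.13 ± 0.05, and by 0.04 without replicate 4, when it lost the threshold, as it did without WT replicate 2.

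DNMT3A1 and the libraries labelled DNMT3A2 were also compared with each other, which tests directly whether they differ. Of the 31 genes, 16 were higher in DNMT3A1, 10 were higher in the libraries labelled DNMT3A2 and 5 passed no test (SQLE, LSS, DHCR7, INSIG1 and STARD4). Over all 16637 genes, 34.5% were higher in DNMT3A1 and 33.9% in the libraries labelled DNMT3A2. The libraries were apart, with DNMT3A1 above, for 14 of the 31 genes and, with DNMT3A1 below, for 10, against 33.4% and 33.2% of all genes. The median log2 fold change was 0.13 over the 31 genes and 0.0030 over all. SQLE passed the test as higher in DNMT3A1 without DNMT3A1 replicate 2 or DNMT3A2 replicate 4, and DHCR7 (−0.07) and INSIG1 (−0.12) as lower without DNMT3A1 replicate 4. In the libraries of lane 6 alone INSIG1 passed it as higher (0.10). Between lanosterol and cholesterol, 7 of 8 genes were higher in DNMT3A1 and the eighth, DHCR7, passed no test. NSDHL (1.17 ± 0.05, adjusted p = 1.75e-17) and TM7SF2 (1.10 ± 0.05, adjusted p = 6.96e-17) were furthest apart. The 50 genes nearest to NSDHL had a median of 0.97 and those nearest to TM7SF2 of 0.03, so the neighbours of the former differed about as much as the gene and those of the latter did not. All 5 fatty acid genes were lower in DNMT3A1, by 0.34 (SCD) to 0.64 (ACLY), with every DNMT3A1 library below every DNMT3A2 library. They summed to 1352 ± 6.06 CPM (SD, n = 3) for DNMT3A1 and to 1900.5 ± 42.7 CPM (SD, n = 4) for the libraries labelled DNMT3A2, against 2388 ± 71.1 for WT and 1588 ± 31.3 for ΔDNMT3A. The SREBP genes were opposed too, with SREBF2 higher in DNMT3A1 (0.51 ± 0.03, adjusted p = 5.32e-14) and SREBF1 lower (−0.27 ± 0.04, adjusted p = 2.72e-06). The 50 genes nearest to SREBF2 had a median of 0.29 and those nearest to SREBF1 of −0.04. In the mevalonate pathway, MVK, PMVK, FDPS and ACAT2 were higher in DNMT3A1, and HMGCS1, IDI1 and MVD were lower, by 0.27 to 0.48. The 50 genes nearest to these 3 had medians of −0.66, −0.51 and −0.44, further from 0 than the genes themselves, and those nearest to MVK had a median of 0.25.

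**Figure D4:**
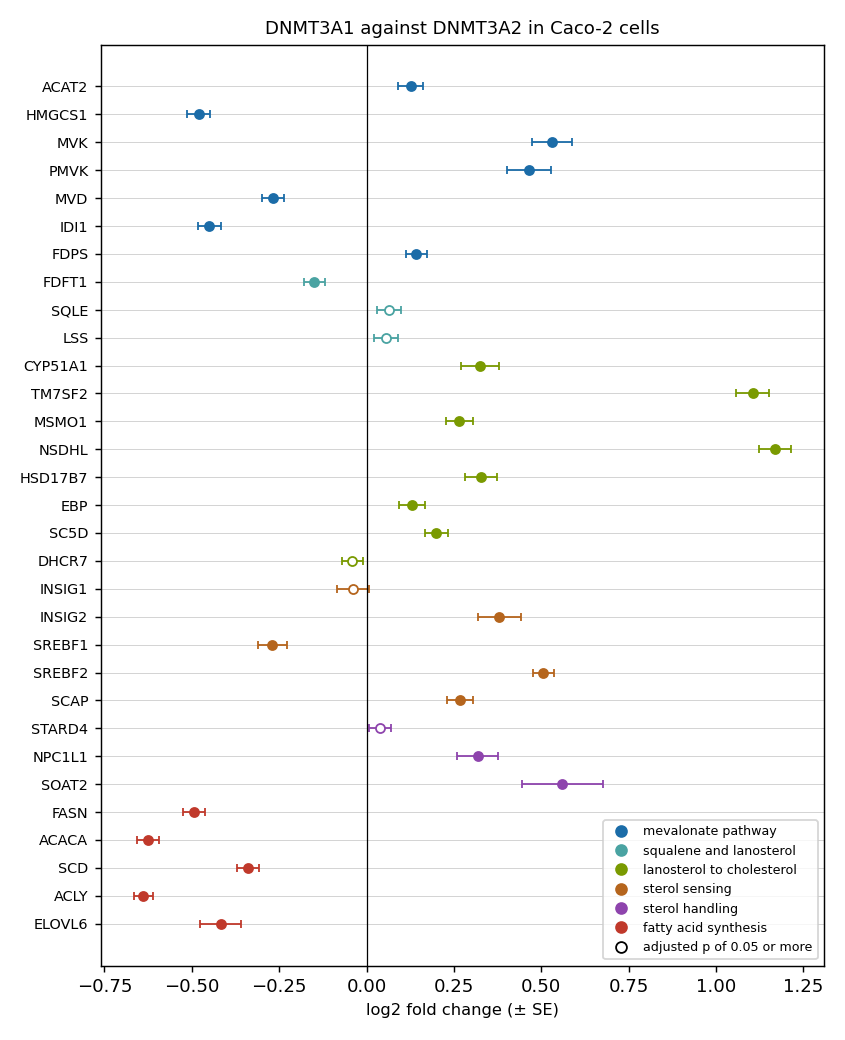
Log2 fold change of DNMT3A1 against the libraries labelled DNMT3A2 (points, bars of 1 SE from edgeR) for the 31 genes, with open points for an adjusted p of 0.05 or more. The 5 fatty acid genes lie left of 0 and 7 of the 8 genes from lanosterol to cholesterol lie right of it.

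A wider list of 55 genes of sterol and fatty acid metabolism was examined in the same fits. In ΔDNMT3A against WT, 24 of the 51 tested were lower and 17 higher (47.1% and 33.3%, against 31% and 31.2% of all genes), and the median change was −0.03 on the log2 scale. Of 6 other genes of sterol and isoprenoid synthesis, 5 were lower and CYB5R3 was higher. Of 15 tested genes of fatty acid and lipid synthesis, 9 were lower and 4 higher. Of 13 genes of SREBP processing and sterol-regulated degradation, 4 were lower and 6 higher. Highest in log2 fold change stood SCD5 (2.55 ± 0.11), a second stearoyl-CoA desaturase, and NCEH1 (1.28 ± 0.05), a cholesteryl ester hydrolase. SCD5 averaged 1.61 CPM over WT and 9.56 CPM over ΔDNMT3A libraries, while SCD fell from 1189 to 539 CPM. The lowest were GRAMD1C (−2.29 ± 0.28) and GRAMD1B (−0.67 ± 0.09), carriers of cholesterol from the plasma membrane to the endoplasmic reticulum, and MLXIPL (−0.97 ± 0.09), a glucose-responsive transcription factor of lipogenic genes. GRAMD1C rested on 5 to 10 reads per ΔDNMT3A library.

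In DNMT3A1 against ΔDNMT3A, 21 of 51 tested genes of the wider list were higher and 17 lower (41.2% and 33.3%, against 30.4% and 30.3% of all genes). GRAMD1C (2.49 ± 0.29), ACACB (1.18 ± 0.06), the mitochondrial acetyl-CoA carboxylase, and MLXIPL (1.09 ± 0.10) were highest, and GRAMD1B (−0.94 ± 0.14), the efflux pump ABCA1 (−0.47 ± 0.06) and the lysosomal lipase LIPA (−0.46 ± 0.05) lowest. In the libraries labelled DNMT3A2 against ΔDNMT3A, 20 of 50 were higher and 22 lower (40% and 44%, against 33.8% and 34.1%). The ubiquitin ligases RNF145 (0.90 ± 0.04) and MARCHF6 (0.80 ± 0.03), which act in sterol-regulated degradation, and ME1 (0.59 ± 0.02), which supplies NADPH, were highest. SCD5 (−2.70 ± 0.13), GRAMD1B (−2.28 ± 0.17) and LIPA (−1.82 ± 0.05) were lowest. Against WT, 21 of 51 were higher and 16 lower in DNMT3A1 (41.2% and 31.4%, against 32.6% and 32.7%), led by SCD5 (2.57), NCEH1 (1.49) and ACACB (0.90) and by GRAMD1B (−1.60), SCARB1 (−0.55) and LPIN1 (−0.55). In the libraries labelled DNMT3A2, 18 were higher and 23 lower (35.3% and 45.1%, against 34.3% and 34.4%), led by MYLIP (0.86), PAQR3 (0.72) and ME1 (0.70) and by GRAMD1B (−2.95), GRAMD1C (−1.99) and LIPA (−1.60). Between DNMT3A1 and the libraries labelled DNMT3A2, 24 of 51 were higher in DNMT3A1 and 17 lower (47.1% and 33.3%, against 34.5% and 33.9%), with SCD5 (2.71), GRAMD1C (2.18) and NCEH1 (1.51) highest and MARCHF6 (−0.83), RNF145 (−0.74) and PAQR3 (−0.51) lowest. GRAMD1C rested on 5 to 10 reads per ΔDNMT3A library, 38 to 48 per DNMT3A1 library and 3 to 16 per library labelled DNMT3A2. GRAMD1B rested on 18 to 39 reads per library labelled DNMT3A2.

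The last comparison asks whether the same genes differ in the colonic epithelium of Dnmt3a ΔIEC mice. Dnmt3a was at 93.9 ± 7.70 CPM (SD, n = 4) in Dnmt3a fl/fl and 46.1 ± 3.30 CPM (SD, n = 4) in Dnmt3a ΔIEC mice (log2 fold change −1.03 ± 0.09 (SE), adjusted p = 0.000763 in edgeR). None of the 29 cholesterol and SREBP genes passed the threshold in edgeR or in DESeq2. At an unadjusted p under 0.05 there were 3 in edgeR (Ebp, Insig1 and Srebf2) and 4 in DESeq2. Over all 14626 genes tested, 0.691% passed the adjusted threshold and 14.1% had an unadjusted p under 0.05. With 1 mouse left out, the number of the 29 at an unadjusted p under 0.05 in edgeR ran from 0 to 6. It was 0 without ΔIEC replicate 2 or fl/fl replicate 3, and 6 without fl/fl replicate 2. The median log2 fold change was −0.10 over the 29 genes and −0.0036 over all, within a range of −0.39 to 0.24. All 29 genes overlapped between the groups, which 4.1% of all genes did not in the direction of lower and 6.16% in that of higher. In bulk samples of this kind, fewer cells of a type and less RNA per cell cannot be told apart.

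The most expressed of the 29 per kilobase were Hmgcs1 at 114 ± 20.3 FPKM (SD, n = 4), Insig1 at 79.0 ± 19.9 and Acly at 64.8 ± 8.77 in Dnmt3a fl/fl. Hmgcs1 had 384, 395, 419 and 272 CPM in the fl/fl mice and 380.0, 313, 258 and 461 in the ΔIEC mice, so that the lowest and the highest mouse were both ΔIEC (−0.06 ± 0.19, adjusted p = 0.924). Insig1 had 217, 333, 234 and 193 CPM in the fl/fl and 187, 167, 175 and 218 CPM in the ΔIEC mice, and the largest decrease of the 29 genes (−0.39 ± 0.16, adjusted p = 0.327). Its fl/fl replicate 2 was far above the other 7 mice. Srebf2 had 292, 272, 309 and 245 CPM in the fl/fl and 234, 245, 225 and 252 CPM in the ΔIEC mice (−0.23 ± 0.10, adjusted p = 0.343). Of the fl/fl mice, replicate 4 lay within the range of the ΔIEC mice and the other 3 above it. Ebp had the largest increase of the 29, with 42.5, 45.1, 37.8 and 39.8 CPM in the fl/fl and 53.00, 47.6, 42.4 and 51.8 CPM in the ΔIEC mice (0.24 ± 0.10, adjusted p = 0.317).

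Srebf1 had 143, 115, 177 and 142 CPM in the fl/fl and 153, 142, 123 and 119.7 CPM in the ΔIEC mice. Scap had 109.8, 87.9, 115 and 109 CPM in the former and 94.7, 97.2, 96.5 and 91.4 CPM in the latter. For Insig2 the levels were 40.3, 32.4, 40.2 and 50.8 CPM and 36.1, 43.96, 49.8 and 48.4 CPM. In all 3 the groups overlapped, with log2 fold changes of −0.10 (Srebf1), −0.15 (Scap) and 0.12 (Insig2). The 4 fatty acid genes had log2 fold changes of −0.35 (Fasn) to −0.03 (Elovl6). Of the genes under other names, Scd1 differed by 0.13 ± 0.18 (SE), Scd2 by 0.02 ± 0.21 and Cyp51 by −0.10 ± 0.20. Npc1l1 and Soat2 were low, at 1.26 to 6.55 and 1.03 to 1.84 CPM over the 8 mice. In the wider list, 53 genes were tested and none passed the threshold in edgeR, while 2 (Scarb1 and Npc2) had an unadjusted p under 0.05.

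The precision differed between the models. The SE of the log2 fold change had a median of 0.03 in ΔDNMT3A against WT and 0.15 in the mice over these genes, and the coefficient of variation between libraries of a group had a median of 3.46% in WT Caco-2 cells and 18.5% in Dnmt3a fl/fl mice, where it was 14.05% over all genes above 1 CPM. The same mice often held the extremes. Replicate 3 was the highest of the 4 Dnmt3a fl/fl mice in 20 of the 29 genes, and replicate 3 of Dnmt3a ΔIEC was the lowest of its group in 17. Replicate 2 of Dnmt3a fl/fl was the lowest of its group in 14 genes, and replicate 4 of Dnmt3a ΔIEC the highest of its group in 14. The summed sterol enzymes were at 1227, 1321, 1408 and 1006 CPM in the fl/fl mice and at 1236, 1131, 982 and 1513 CPM in the ΔIEC mice, and the groups overlapped over most of their range. Markers of proliferation summed to 533, 396, 757 and 358 CPM and to 567, 427, 301 and 337 CPM in the same mice, highest in fl/fl replicate 3 and lowest in ΔIEC replicate 3. Immune markers summed to 3.19 to 4.69 CPM in fl/fl and 5.65 to 6.93 CPM in ΔIEC mice, with 1 of 8 above 1 CPM, and goblet, enteroendocrine and tuft cell markers to 14713 to 18686 and 10061 to 15740 CPM. Of the latter 6 markers, 2 passed the test as higher in ΔIEC mice and none as lower, at an adjusted p under 0.05 in edgeR. These 6 (Muc2, Tff3, Chga, Chgb, Dclk1 and Trpm5) mark different cell types, and their median log2 fold change was −0.11. Their part in these levels was not tested.

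**Figure D5:**
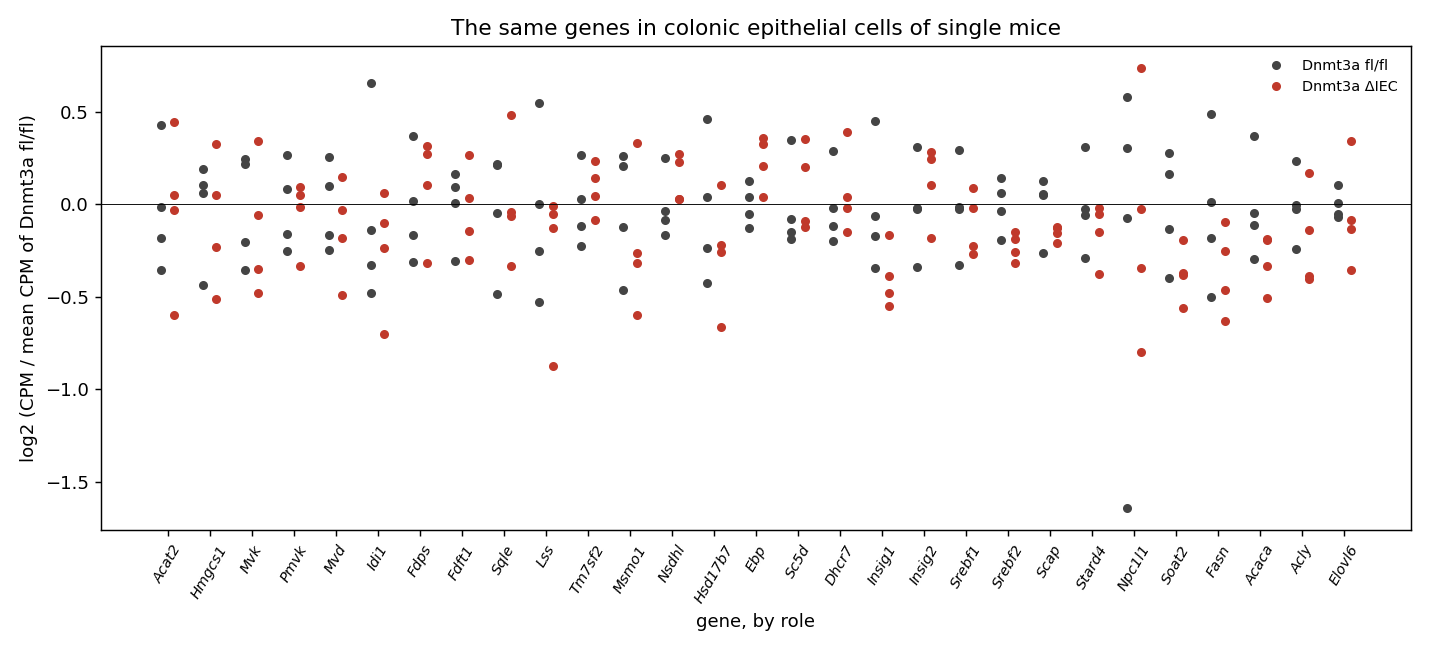
Level of the 29 genes in each mouse as the log2 ratio of its CPM to the mean CPM of the 4 Dnmt3a fl/fl mice, by role (points are mice). The mice of both groups overlap in all 29 genes.

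Some counts could be shared with other genes. In the human annotation, 5 of the 31 genes (IDI1, FDPS, CYP51A1, HSD17B7 and SCD) have 17 named pseudogene copies among the counted genes, which may take or give reads. The human counts used strand, and 6 of the 31 genes overlap another gene on the same strand, among them TM7SF2 with VPS51. In the mouse, Fdps and Tm7sf2 overlap another gene on the same strand. The mouse counts did not use strand, and 6 of the 29 genes overlap a gene on the other strand, among them Fdft1 with Ctsb and Srebf1 with Rai1. Their values are uncertain to that extent.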

How the data were processed

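RNA was sequenced from 4 Caco-2 lines (stranded total RNA libraries, paired reads of 75 bases) and from EpCAM-positive colonic epithelial cells of 2 groups of mice (50 bases). The authors trimmed reads with Trim Galore 0.4.4, aligned them with STAR 2.5.2b to GRCh38 or GRCm38 and deposited raw counts per gene from featureCounts, version 1.5.2 in the submitters' processing notes and 1.6.4 in the mouse file headers. Per the file headers, human reads were counted by strand and mouse reads without it. Of 4 DNMT3A1 samples listed, 3 were analysed here.

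From these counts, each pair of groups was fitted alone in edgeR 4.0.16 (R 4.3.3) with filterByExpr, TMM scaling and the quasi-likelihood test, adjusted over all genes tested by Benjamini-Hochberg, at a threshold of 0.05. CPM used TMM library sizes, and FPKM the summed exon length of each gene. The fit was tested on simulated counts. Symbols came from a table of gene identifiers and names, which matched 56948 of 58051 human identifiers. Alternatives were DESeq2 1.42.0, its size factors, no filter, a length trend removed, 1 fit over 4 lines, a block for the replicate number, each library left out and, chosen after seeing the data, each sequencing lane (5 or 6) alone. Values per library are given for genes past the threshold that moved by 0.5 or more on the log2 scale in ΔDNMT3A against WT, in an isoform line against ΔDNMT3A or in the mice, and for the sterol sensing genes, and in the wider list the 3 highest and 3 lowest genes past the threshold are named, apart from 1 that is not reported here. Other genes given per library were chosen after their values were seen. The genes and lists were chosen with earlier results of these data known.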

Additional observations from a re-analysis of the deposited data

Results flagged for a closer look

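SREBF1 in WT replicate 2 stood apart from the other 3 WT libraries, at 60.9 CPM against 66.8 to 67.7 CPM. It was 1 of 151 groups of 4 libraries (each gene in each group) that were examined for a library far from the others by Dixon's criterion, which chance alone meets in about 1 in 20 groups. No explanation was tested.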

How the results depend on the processing

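Over 3231 recomputed values, 3143 kept their side of the threshold without a called value changing direction, among them 48 values that changed sign while not past the threshold in either fit. Of the others 55 lost the threshold, 31 gained it and 2 changed sign with a call in 1 of the fits. Those 2 were INSIG1 in lane 6 alone, where DNMT3A1 has 1 library, which is assumed to vary like the other group. Against ΔDNMT3A it was called lower in the full fit and was at 0.0236, not past the threshold, in that lane. Against the libraries labelled DNMT3A2 it was not called in the full fit and was called higher in that lane (0.10). In that lane, 9 genes were lower in DNMT3A1 than in ΔDNMT3A, with fewer libraries in the fit. Over all genes, too, fewer were called lower in that lane than in the full fit, so the smaller number is not particular to these genes. A demand for a log2 fold change of at least 1 left 0 higher and 1 lower gene in ΔDNMT3A against WT, 0 and 0 in DNMT3A1 against ΔDNMT3A, and 0 and 1 in DNMT3A2 against ΔDNMT3A. It left 0 and 3 in DNMT3A1 against WT, and 0 and 5 in DNMT3A2 against WT. Over all genes, 1418 of 16654 met this demand either way in ΔDNMT3A against WT. Against ΔDNMT3A, 1403 of 16860 met it in DNMT3A1 and 1956 of 16431 in DNMT3A2. Against WT, 2043 of 17029 met it in DNMT3A1 and 1818 of 16360 in DNMT3A2. With 1 library left out, the numbers higher and lower ran from 3 to 3 and 24 to 25 in ΔDNMT3A against WT, 6 to 7 and 12 to 14 in DNMT3A1 against ΔDNMT3A, 8 to 10 and 18 to 19 in DNMT3A2 against ΔDNMT3A, 4 to 7 and 23 to 24 in DNMT3A1 against WT, 3 to 4 and 24 to 25 in DNMT3A2 against WT, 16 to 17 and 10 to 12 in DNMT3A1 against DNMT3A2, and 0 to 0 in the mice. Over all genes, these Caco-2 fits tested 16321 to 17386 genes and called 9442 to 11179 of them either way. The mouse fits tested 14660 to 14804 genes and called 45 to 126. Deviations of same-numbered Caco-2 libraries had correlations of −0.161 to 0.131 over 21 pairs, and those of other pairs −0.194 to 0.125 over 63. Of 15 libraries, 6 were closest to one with their own number. What same-numbered libraries share beyond the number was not tested. With the replicate number as a block, 3 genes were higher and 25 lower in ΔDNMT3A against WT, 8 and 15 in DNMT3A1 against ΔDNMT3A, 8 and 19 in DNMT3A2 against ΔDNMT3A. Over all genes, this block gave 5297 higher and 5271 lower of 16654, 5054 and 4989 of 16860, and 5514 and 5599 of 16431. Over all mouse genes, edgeR called 101 genes (87.1% higher) and DESeq2 407 (63.9% higher), and neither called any of the 29. The cause of these changes was not tested. The spread between mice limits what the mouse comparison can show, and single clones limit the comparisons of lines.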
